A study of Mus musculus with 17 samples.

Results

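The Ikaros family of zinc finger transcription factors was followed in sorted mouse eosinophils through its 5 members, Ikzf1 (Ikaros), Ikzf2 (Helios), Ikzf3 (Aiolos), Ikzf4 (Eos) and Ikzf5 (Pegasus). The members were found by gene symbol in the platform annotation, and each was read by 1 probe set, so they made up 5 of the 22180 genes analysed. The family was chosen by a measured value, the higher Ikzf2 in esophageal eosinophils without Pirb. All genotype differences in the esophagus, and all differences of Ikzf2 that use those arrays, are therefore given as descriptions with no test.

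Ikaros family proteins bind DNA through zinc fingers near the amino end and pair with one another through zinc fingers near the carboxyl end. They can recruit the NuRD chromatin remodelling and deacetylase complex and other corepressors. They are best known from lymphocytes: Ikaros is needed for lymphoid development, Aiolos acts in maturing B cells, and Helios and Eos mark regulatory T cells. In human cells, thalidomide analogs direct IKAROS and AIOLOS to the cereblon ubiquitin ligase for destruction.

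All groups came from CC10-IL13Tg mice, male and female and aged 6 to 8 weeks, in which doxycycline (Dox) in the food switches on interleukin-13 from a transgene under the CC10 promoter, active in club cells of the airway. Knockout mice were CC10-IL13Tg/Pirb-/- and wildtype littermates CC10-IL13Tg/Pirb+/+, where Pirb encodes an inhibitory receptor of myeloid cells. The 6 groups were esophageal eosinophils of knockout and of wildtype mice with 2 weeks of Dox, marrow eosinophils of knockout and of wildtype mice with 2 weeks of Dox, and marrow eosinophils of knockout and of wildtype mice without Dox. There were 3 arrays in each group except wildtype marrow without Dox, which had 2 after the authors dropped 1 for low hybridization signal. The sort took cells that carried CD45, Siglec-F and CCR3. The labels do not give replicates as separate animals or as pools of them, and the p-values cover no more than the spread among these arrays, which may be technical.

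Each value is a difference, on the log2 scale, from that probe set's middle array, because the authors centred each probe set before deposit. They show where a gene was high or low, but not how bright it was, so levels of different members cannot be set against each other and no value says that a gene was off. Overlap or separation of arrays is given as a description. The share of all genes whose arrays did not overlap was not counted, so nothing is read from separation alone. The Pirb probe set did not separate the genotypes: with Dox it lay between 0.77 and 1.20 in knockout and between 0.75 and 2.17 in wildtype esophageal arrays. Whether it lies in the deleted part is not known, so it checks nothing about the labels. Among marrow arrays, replicate 3 of knockout without Dox was the widest, with an SD over probe sets of 0.811 where the rest had 0.250 to 0.296. Replicate 1 of wildtype esophagus had a mean r over genes of 0.704 with the knockout esophageal arrays and 0.593 with the other wildtype ones.

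Of the 4 members tested between the tissues, only Ikzf3 passed, in both genotypes. Ikzf2 had its highest values in knockout esophageal eosinophils, the observation that led to the choice of the family. Ikzf1, Ikzf4 and Ikzf5 stayed within narrower ranges, with group means between -0.30 and 0.48.

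**Figure D1:**
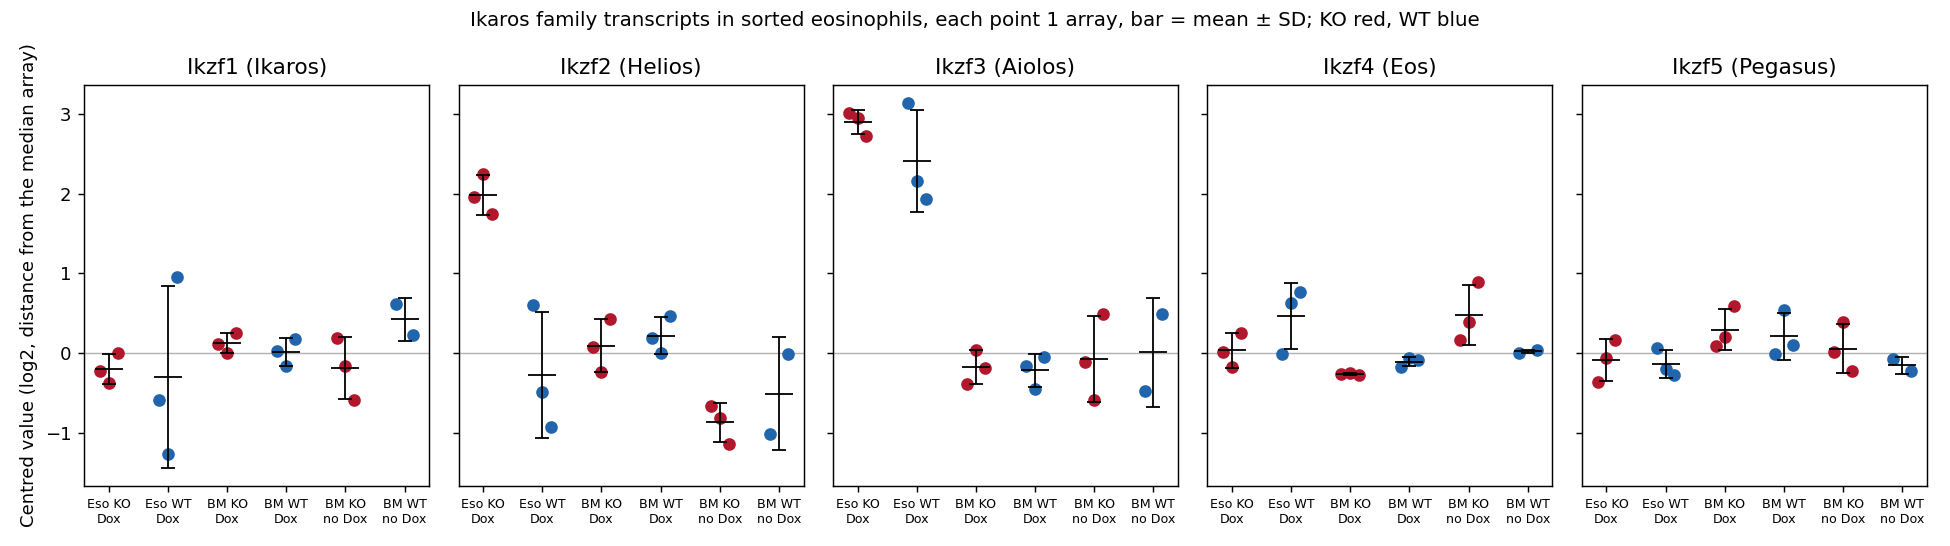
Centred log2 values of the 5 members (vertical axis, distance from the median array) in each of the 6 groups, esophagus (Eso) and bone marrow (BM), PirB knockout (KO, red) and wildtype (WT, blue). Each point is 1 array and bars are the mean ± SD; the knockout esophageal arrays of Ikzf2 lie between 1.75 and 2.25, above the other 14 arrays, and all 6 esophageal arrays of Ikzf3 lie above all 11 marrow arrays.

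Ikzf2 encodes Helios, a family member found in regulatory T cells and hematopoietic progenitors. In knockout esophageal eosinophils its values were 1.96, 2.25 and 1.75, against 0.61, -0.49 and -0.93 in wildtype esophageal eosinophils. The lowest knockout array was 1.14 above the highest wildtype one, which was replicate 1, the array nearest to the knockout arrays over all genes. The difference was 2.26 ± 0.35 (SE, n = 3 each), a ratio of 4.78, and it is the value that led to the choice of the family. Over all genes, 0.347% were called in this comparison, from which nothing is read for the family. The difference was between 1.93 and 2.70 when any 1 array was left out, the highest without replicate 1 of wildtype esophagus, and 1.43 after quantile normalization.

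In marrow with Dox, Ikzf2 was 0.08, -0.23 and 0.43 in knockout eosinophils and 0.19, 0.00 and 0.47 in wildtype eosinophils. These arrays overlapped. The marrow genotype difference was -0.13 ± 0.35 (95% interval -0.88 to 0.63, limma adjusted p = 1). The knockout esophageal mean was thus 1.89 ± 0.35 above that of knockout marrow with Dox, with no overlap, while the wildtype esophageal mean was 0.49 ± 0.35 below that of wildtype marrow with Dox, with overlap. After quantile normalization the knockout tissue difference was 1.24. The genotype difference was larger in the esophagus than in marrow by 2.39 ± 0.49, which rests on the arrays that led to the choice and was not tested.

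Without Dox, Ikzf2 was -0.66, -0.81 and -1.14 in knockout marrow and -1.01 and 0.00 in wildtype marrow. All 3 knockout marrow arrays with Dox lay above all 3 without it. The Dox difference in knockout was 0.96 ± 0.35 and missed the threshold (limma adjusted p = 0.154, unadjusted p = 0.0164). In wildtype it was 0.73 ± 0.39 (limma adjusted p = 1), and the lowest array with Dox and the highest without it were both at 0.00. It was 0.23 without replicate 1 and 1.23 without replicate 3 of wildtype marrow without Dox, and 1.43 after quantile normalization. In order, Ikzf2 was highest in knockout esophagus, 1.77 above the next group mean, and the 5 other groups each overlapped their neighbour in the order.

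Ikzf3 encodes Aiolos, a partner of Ikaros in B cells. In knockout esophageal eosinophils its values were 3.01, 2.95 and 2.73, against -0.38, 0.04 and -0.19 in knockout marrow with Dox. In wildtype esophageal eosinophils they were 3.14, 2.17 and 1.93, against -0.16, -0.45 and -0.04 in wildtype marrow with Dox. The lowest of the 6 esophageal arrays was 1.43 above the highest of all 11 marrow arrays, those without Dox included.

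Ikzf3 rose in esophageal over marrow eosinophils in both genotypes. The difference was 3.07 ± 0.33 in knockout (SE, ratio 8.40, 95% interval 2.36 to 3.78, limma adjusted p = 6.64e-05). In wildtype it was 2.63 ± 0.33 (ratio 6.18, 95% interval 1.91 to 3.34, limma adjusted p = 0.000325). It was the only member of the 4 tested to pass in either genotype, while 10.5% of all genes passed in knockout and 15.2% in wildtype. The call held in all 24 alternative fits in both genotypes. Because cells are measured in bulk, fewer cells of a type and less RNA per cell cannot be told apart.

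Genotype and Dox moved Ikzf3 less than tissue did. The knockout minus wildtype difference in the esophagus was 0.48 ± 0.33, with wildtype replicate 1 above all 3 knockout arrays, and 0.85 without that replicate. It was 0.24 without wildtype replicate 3 and 0.079 after quantile normalization. In marrow with Dox the genotype difference was 0.04 ± 0.33 (95% interval -0.67 to 0.75, limma adjusted p = 1). The Dox difference in marrow was -0.10 ± 0.33 in knockout (limma adjusted p = 0.827) and -0.23 ± 0.37 in wildtype (limma adjusted p = 1), with overlapping arrays in both.

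Ikzf1 encodes Ikaros, the member after which the family is named. In the esophagus it was -0.22, -0.37 and 0.00 in knockout eosinophils and -0.59, -1.26 and 0.96 in wildtype eosinophils. In marrow with Dox it was 0.12, 0.00 and 0.26 in knockout and 0.03, -0.16 and 0.18 in wildtype. The wildtype esophageal arrays thus spread over a wider range than all other arrays of Ikzf1, and every group overlapped its neighbours in the order of means.

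The tissue difference of Ikzf1 was -0.32 ± 0.40 in knockout (95% interval -1.19 to 0.55, limma adjusted p = 0.694) and -0.31 ± 0.40 in wildtype (95% interval -1.18 to 0.56, limma adjusted p = 0.567). The wildtype value turned on single arrays: it was -0.94 (limma adjusted p = 0.0303) without replicate 3 of wildtype esophagus and 0.17 (limma adjusted p = 0.767) without replicate 2. With array weights it was 0.24. The genotype difference in the esophagus was 0.10 ± 0.40, and it ran from -0.38 to 0.73 with 1 array left out.

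Without Dox, marrow Ikzf1 was 0.19, -0.16 and -0.59 in knockout, against 0.62 and 0.23 in wildtype. Every knockout array was below both wildtype arrays. That difference, -0.61 ± 0.45, did not pass (95% interval -1.58 to 0.36, limma adjusted p = 0.570). The Dox difference of Ikzf1 was 0.31 ± 0.40 in knockout marrow and -0.41 ± 0.45 in wildtype marrow, and neither passed (limma adjusted p = 0.570 and 1).

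Ikzf4 encodes Eos, a corepressor partner of Foxp3 in regulatory T cells. In the esophagus it was 0.02, -0.17 and 0.26 in knockout eosinophils and -0.01, 0.64 and 0.77 in wildtype eosinophils, a difference of -0.43 ± 0.20. In marrow with Dox it was -0.26, -0.24 and -0.28 in knockout and -0.17, -0.06 and -0.09 in wildtype. Esophageal arrays lay above the marrow arrays with Dox of the same genotype, without overlap.

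The tissue difference of Ikzf4 was 0.29 ± 0.20 in knockout (95% interval -0.14 to 0.72, limma adjusted p = 0.424). In wildtype it was 0.57 ± 0.20 and lay just outside the threshold (95% interval 0.14 to 1.00, limma adjusted p = 0.0664). It passed in 4 of the 24 alternative fits, which gave differences from 0.42 to 0.81 and limma adjusted p up to 0.203. Without replicate 3 of knockout marrow without Dox it passed at the same size (limma adjusted p = 0.0207). Without replicate 1 of wildtype esophagus it passed at 0.81 (limma adjusted p = 0.0118).

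Without Dox, marrow Ikzf4 was 0.16, 0.39 and 0.90 in knockout, the highest value in replicate 3, and 0.01 and 0.04 in wildtype. The Dox difference in knockout marrow was -0.74 ± 0.20 with no overlap, and it did not pass (limma adjusted p = 0.146, unadjusted p = 0.00245). It passed in 2 of the 24 alternative fits, with limma adjusted p up to 0.419 over the 24. These were quantile normalization, at -0.92 (limma adjusted p = 0.0273), and array weights, at -0.62 (limma adjusted p = 0.00529). With 1 array left out it ran from -0.91 to -0.54, smallest in size without replicate 3 of knockout marrow without Dox. In wildtype marrow the Dox difference was -0.13 ± 0.22 (limma adjusted p = 1).

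Ikzf4 moved with the median of all probe sets on an array. Across the 17 arrays its Pearson r with that median was 0.93 and its Spearman rho 0.89, with r = 0.92 over the 6 esophageal arrays and 0.88 over 10 marrow arrays, without the one that stood apart. Its r was higher than that of 97.8% of all genes. Both measures come from the same arrays, and the r is a description. The part of this shift in the differences of Ikzf4 was not tested. After subtracting each array's median, its tissue difference was 0.25 in knockout and 0.47 in wildtype, and its Dox difference in knockout marrow -0.63.

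The array medians were -0.00574, -0.0106 and 0.0156 in knockout esophagus and 0.0166, 0.131 and 0.0984 in wildtype esophagus. Ikzf2 ran the other way over these 6 arrays, high where the median was low (r = -0.92). Over the 10 marrow arrays without the one that stood apart, its r was -0.47. Wildtype replicate 1 had a median close to that of knockout replicate 3, and its Ikzf2 was 0.61 against 1.75 in that knockout array. In marrow with Dox the medians lay between -0.0497 and -0.000865, and Ikzf2 did not exceed 0.47. The part of the array median in the differences of Ikzf2 was not tested.

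**Figure D2:**
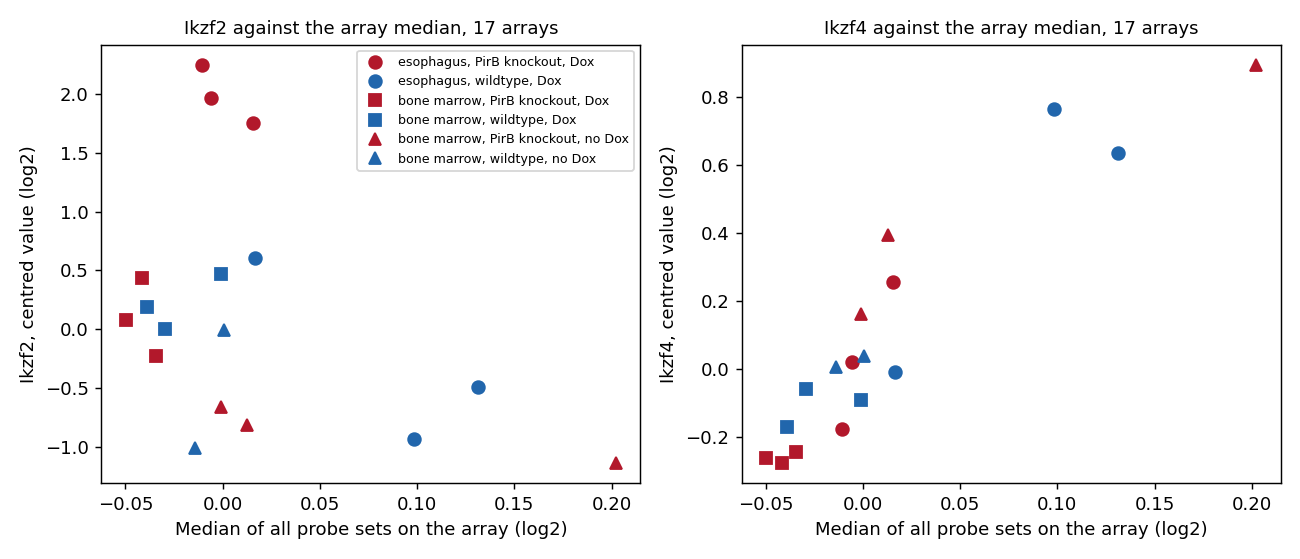
Centred log2 value of Ikzf2 (left) and Ikzf4 (right) against the median of all probe sets on the same array (horizontal axis, log2), for 17 arrays; circles are esophagus with Dox, squares marrow with Dox, triangles marrow without Dox, knockout red and wildtype blue. Ikzf4 followed the median (r = 0.93), and for Ikzf2 the 3 knockout esophageal arrays lie apart at 1.75 to 2.25.

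Ikzf5 encodes Pegasus, a more distant and widely expressed member. In the esophagus it was -0.36, -0.06 and 0.17 in knockout eosinophils and 0.06, -0.19 and -0.27 in wildtype eosinophils. In marrow with Dox it was 0.10, 0.21 and 0.59 in knockout and -0.01, 0.55 and 0.11 in wildtype. All neighbouring groups overlapped in the order of means.

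The tissue difference of Ikzf5 was -0.38 ± 0.20 in knockout (95% interval -0.80 to 0.05, limma adjusted p = 0.277) and -0.35 ± 0.20 in wildtype (95% interval -0.77 to 0.08, limma adjusted p = 0.209). The Dox difference was 0.24 ± 0.20 in knockout marrow and 0.36 ± 0.22 in wildtype marrow, and neither passed (limma adjusted p = 0.381 and 1). Without Dox, marrow Ikzf5 was 0.01, 0.39 and -0.23 in knockout and -0.08 and -0.23 in wildtype.

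Across the whole family, none of the 5 members passed the Dox comparison, in which 0.0225% of all genes were called in knockout marrow and 0.0225% in wildtype marrow. At an unadjusted limma p under 0.05, 2 members passed in knockout (Ikzf2 and Ikzf4) and 0 in wildtype, against 6053 and 957 of all 22180 genes. In both marrow genotype comparisons 0 of 5 members passed, with 0% of all genes called with Dox and 0% without Dox. No member reached an unadjusted limma p under 0.05 there either, against 407 genes with Dox and 1809 without. The widest marrow genotype differences were -0.61 ± 0.45 for Ikzf1 and 0.46 ± 0.22 for Ikzf4 (limma adjusted p = 0.546), both without Dox.

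**Figure D3:**
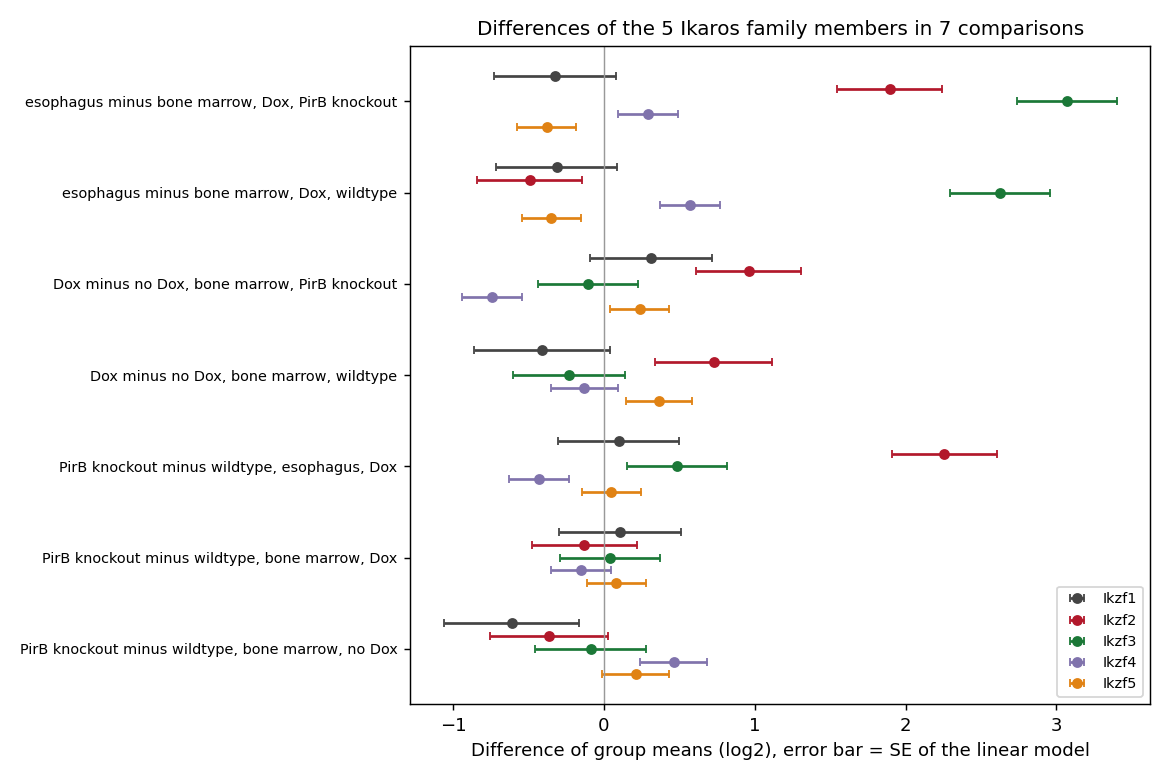
Differences of group means (horizontal axis, log2) of the 5 members in 7 comparisons, 1 colour per member; error bars are the SE of the linear model. Ikzf3 lies at 3.07 and 2.63 in the tissue comparisons, and Ikzf2 at 2.26 in the esophageal genotype comparison.

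The members did not share 1 pattern. Over the 17 arrays the highest r between members was 0.62, for Ikzf2 and Ikzf3, which were both high in knockout esophagus. The other 9 pairs lay between -0.48 and 0.22. These correlations are over arrays of 6 groups, so differences between groups enter them, and they are descriptions.

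The gene whose pattern was most like Ikzf2 was Pecam1, an adhesion molecule of leukocytes and endothelium (r = 0.92 over 17 arrays). It averaged 1.75 in knockout esophagus, against 0.32 in wildtype esophagus. Next came Zfp429, Pld1, Csk, Ric1, Swt1, Sra1 and Heca, with r between 0.88 and 0.89. Pld1 encodes a phospholipase D, and Csk a kinase that restrains Src family kinases. All 8 had a higher mean in knockout than in wildtype esophagus, as a high r with Ikzf2 nearly requires. Without the array that stood apart, 5 of the 8 were again among the first 8, and 3 of them by rank correlation.

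The genes most like Ikzf3 were Serpinb2, a plasminogen activator inhibitor (r = 0.98), Cd9, a tetraspanin (r = 0.98), and Mkx, a homeobox factor (r = 0.97). Serpinb2 averaged 5.98 in knockout and 5.63 in wildtype esophagus, against -0.18 in knockout and -0.19 in wildtype marrow with Dox. For Ikzf4 they were Spns2, a sphingosine-1-phosphate transporter (r = 0.97), Tex48 (r = 0.96) and C8a, a complement component (r = 0.95). For Ikzf1 and Ikzf5 the likeness was looser, with Ube3c at 0.81 the nearest to Ikzf1 and Kansl2 at 0.85 the nearest to Ikzf5. By rank correlation, other genes took the first 3 places for each of Ikzf1, Ikzf3, Ikzf4 and Ikzf5.

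**Figure D4:**
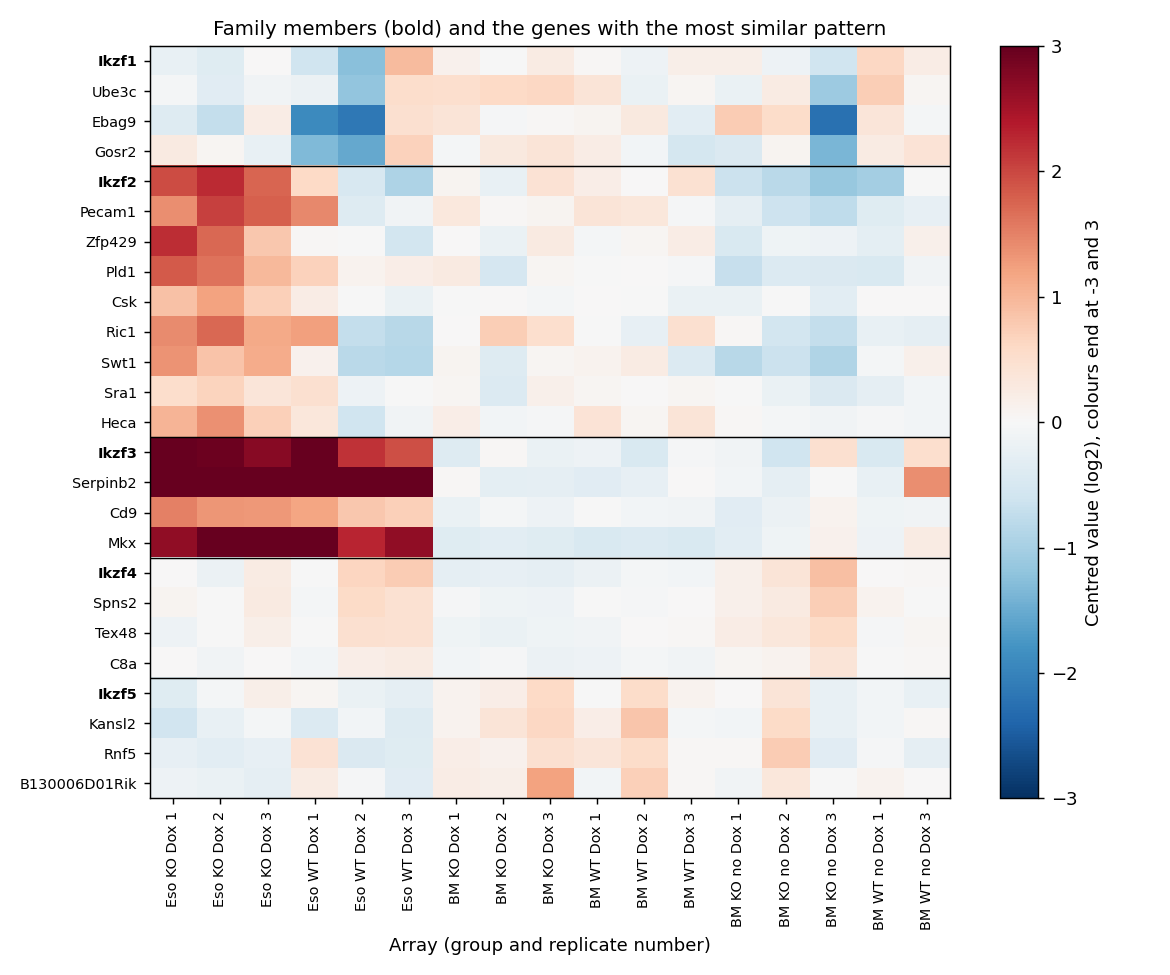
Centred log2 values (colour, ending at -3 and 3) of the 5 members, in bold, and of the genes with the highest Pearson r to each over 17 arrays; columns are arrays by group and replicate number. Ikzf2 and its 8 nearest genes are high in knockout esophagus, and Ikzf3 with Serpinb2, Cd9 and Mkx is high in both esophageal groups.

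The corepressor partners of the family were followed between the tissues. Of 19 genes of NuRD and other corepressors, 1 rose and 3 fell in knockout esophageal over marrow eosinophils, with a median of -0.04 beside 0.06 over all genes. In wildtype 0 rose and 5 fell, with a median of -0.08 beside 0.14. The share called was 21.1% in knockout and 26.3% in wildtype, beside 10.5% and 15.2% of all genes. The histone deacetylase Hdac1 fell by 3.70 on the log2 scale in wildtype (limma adjusted p = 0.00445). In knockout its difference was -1.80 ± 0.69 (limma adjusted p = 0.127). Hdac2 fell by 3.02 in wildtype (limma adjusted p = 0.00101) and fell by 1.67 in knockout (limma adjusted p = 0.0289).

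The histone-binding subunit Rbbp7 fell by 1.41 in wildtype (limma adjusted p = 0.0108), and Rbbp4 fell by 0.92 (limma adjusted p = 0.0191). The Rbbp4 call was lost with its lowest-numbered probe set, at limma adjusted p = 0.641, and without any 1 of 4 wildtype arrays with Dox, namely marrow replicates 1 and 3 and esophageal replicates 2 and 3. The knockout call of Hdac2 was lost when any 1 of the 6 arrays compared was left out, with limma adjusted p up to 0.0932. Chd4, the NuRD helicase, was at -0.27 ± 0.23 in knockout and -0.52 ± 0.23 in wildtype and did not pass (limma adjusted p = 0.533 and 0.120). In the esophageal genotype comparison, described with no test, their median was 0.31 beside -0.10 over all genes.

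Of 7 genes of the cereblon ligase and casein kinase 2, which in human cells act on Ikaros proteins, Ddb1, the ligase's adaptor, was the 1 gene called in each genotype, a share of 14.3% and near that of all genes (10.5% in knockout and 15.2% in wildtype). It fell by 2.73 in wildtype (limma adjusted p = 0.00161) and fell by 1.60 in knockout (limma adjusted p = 0.0310) in esophageal over marrow eosinophils. The knockout call was lost without any 1 of 5 of the 6 arrays compared, all but replicate 2 of esophagus, with limma adjusted p up to 0.122. In the esophageal genotype comparison the median of the 7 genes was 0.86 beside -0.10 over all genes, again with no test. The mean of the 7 lay between -1.13 and -0.35 in wildtype and between -0.25 and 0.06 in knockout esophageal arrays.

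Of 27 lymphoid genes known to be bound or regulated by Ikaros proteins, 3 rose and 5 fell in knockout esophageal over marrow eosinophils, and 4 rose and 2 fell in wildtype. The share called was 29.6% in knockout and 22.2% in wildtype, beside 10.5% and 15.2% of all genes. Their median was 0.07 in knockout and 0.22 in wildtype, beside 0.06 and 0.14 over all genes. Cdkn1a, the cell cycle inhibitor p21, rose by 2.66 ± 0.17 in knockout (limma adjusted p = 6.41e-07) and by 2.31 ± 0.17 in wildtype (limma adjusted p = 3.76e-06).

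Ccnd2, cyclin D2, fell by 2.04 in knockout (limma adjusted p = 0.00022) and fell by 1.12 in wildtype (limma adjusted p = 0.0130). The Notch target Hes1 rose by 1.28 ± 0.18 in knockout (limma adjusted p = 0.000597) and by 0.69 ± 0.18 in wildtype (limma adjusted p = 0.0258). The wildtype calls were lost for Ccnd2 without marrow replicate 1 and for Hes1 without any 1 of the 3 marrow arrays or esophageal replicate 2 or 3, with limma adjusted p up to 0.064 and 0.0865. Notch1 rose by 1.32 ± 0.18 in knockout (limma adjusted p = 0.000427), and its wildtype difference was 0.51 ± 0.18 (limma adjusted p = 0.0683). The median of the 27 lymphoid genes in the esophageal genotype comparison, with no test, was -0.19 beside -0.10 over all genes.

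Markers of lymphocytes, in which Helios, Aiolos and Eos are best known, were followed beside the members. The mean of 14 T cell markers lay between 0.003 and 0.116 in knockout esophageal arrays and between 0.096 and 0.415 in wildtype ones. The mean of 10 regulatory T cell markers lay between -0.100 and 0.049 in knockout and between 0.058 and 0.305 in wildtype esophageal arrays. The T cell means overlapped at the edge, and the regulatory T cell means were lower in all 3 knockout arrays. The median genotype difference was -0.16 for T cell and -0.18 for regulatory T cell markers, beside -0.10 over all genes. The part of lymphocyte RNA in the values of Ikzf2 was not tested. Foxp3, which defines regulatory T cells, averaged 0.00 ± 0.05 in knockout and 0.20 ± 0.18 in wildtype esophagus (SD, n = 3 each), and Cd3e, of the T cell receptor complex, 0.04 ± 0.08 and 0.28 ± 0.15.

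The mean of 13 B cell markers lay between -0.015 and 0.051 in knockout and between 0.139 and 0.165 in wildtype esophageal arrays, and between 0.003 and 0.115 in knockout and -0.079 and 0.154 in wildtype marrow arrays with Dox. In esophageal over marrow eosinophils 1 of the 13 rose and 2 fell in knockout, and 1 rose in wildtype, shares of 23.1% and 7.69% beside 10.5% and 15.2% of all genes. The 2 that fell in knockout were Cd79b, at -1.01 ± 0.27 (limma adjusted p = 0.0301), and Blnk, at -0.68 ± 0.16 (limma adjusted p = 0.0158). Both lost the call in some alternatives, with limma adjusted p up to 0.132 and 0.0768. The one that rose in both genotypes was Bank1, a B cell scaffold protein, at 1.54 ± 0.27 in knockout (limma adjusted p = 0.00233) and 1.01 ± 0.27 in wildtype (limma adjusted p = 0.0259). Bank1 lost its call in wildtype without any 1 of replicates 1 and 2 of either tissue, and in both genotypes after quantile normalization, with limma adjusted p up to 0.112 in knockout and 0.139 in wildtype.

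Of the T cell markers 0 passed in knockout and 3 rose in wildtype between tissues, and of the 10 regulatory T cell markers 1 fell in knockout and 1 rose in wildtype. Over all genes 10.5% passed in knockout and 15.2% in wildtype, so the regulatory T cell counts were no higher than the background, and the T cell share was 0% in knockout and 21.4% in wildtype. The centred values do not show whether any of these markers is expressed, and the part of lymphocyte RNA in the tissue difference of Ikzf3 was not tested.

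Marker transcripts of other cell types also differed between the tissues in which Ikzf3 differed. Of 17 neutrophil markers 12 fell and 2 rose in esophageal over marrow eosinophils, in knockout and in wildtype alike. The share called was 82.4% in each, beside 10.5% of all genes in knockout and 15.2% in wildtype. Mpo, the neutrophil granule peroxidase, was lower by a log2 difference of -5.52 ± 0.17 in knockout and -5.45 ± 0.17 in wildtype. Of 15 monocyte and macrophage markers 9 fell and 1 rose in knockout, and 4 fell and 1 rose in wildtype. These were shares of 66.7% and 33.3%. Of 12 mast cell and basophil markers 4 fell and 0 rose in each genotype, a share of 33.3%.

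Of 15 epithelial, fibroblast and endothelial markers 4 rose and 0 fell in knockout, and 1 rose and 1 fell in wildtype. The shares were 26.7% and 13.3%, beside 10.5% and 15.2% of all genes, so the wildtype share was below its background. In each genotype 14 of 15 markers were above 0. The median of the markers was 0.28 in knockout and 0.33 in wildtype, beside 0.06 and 0.14 over all genes. Their mean lay between 0.261 and 0.389 in knockout esophageal arrays and between 0.142 and 0.344 in wildtype ones, against -0.131 to -0.049 in knockout and -0.072 to -0.002 in wildtype marrow arrays with Dox. The 4 that rose in knockout were Pecam1, also the gene most like Ikzf2, Krt13, an epithelial keratin, and the collagen genes Col1a2 and Col3a1. Col3a1 was also the 1 that rose in wildtype, where the cadherin gene Cdh1 fell. Of the other 5 marker lists, those of plasma cells, NK cells, ILC2, dendritic cells and erythroid or progenitor cells, each had 0 to 3 called genes in a genotype. Their shares ran from 0% to 25% in knockout and from 0% to 20% in wildtype. Of 23 eosinophil genes 7 rose and 5 fell in knockout, and 5 rose and 4 fell in wildtype, shares of 52.2% and 39.1%. Epx, the eosinophil peroxidase, was at -3.50 ± 0.41 in both genotypes. Alox15 was at 3.36 ± 0.59 in knockout and 2.95 ± 0.59 in wildtype. Siglecf, which encodes the sort marker Siglec-F, was 0.95 ± 0.16 higher in knockout than in wildtype esophagus, given with no test. The part of these marker differences in the values of Ikzf2 and Ikzf3 was not tested.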

How the data were processed

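Per the labels' protocols, Nugen Ovation One-Direct was used to amplify eosinophil RNA, which was then hybridised to 1-colour Affymetrix arrays. The authors deposited log values for 33793 probe sets and 17 arrays, taken here as log2, made with Affymetrix Expression Console per the submitters' processing notes. The log base, the summarization and any normalization between arrays are not given in the sources used here. Neighbouring middle values were equal and opposite within 2e-05 in 97.08% of probe sets, so each had been centred on its median array. No filter on dim probe sets was possible.

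Probe sets with 1 symbol (23521) gave 22180 genes, with the mean taken for the 1082 genes with several. In R 4.3.3, limma 3.58.1 fitted the means of the 6 groups over all arrays, with eBayes. Tests were two-sided, with Benjamini-Hochberg adjustment over all genes and a threshold of 0.05. The number of arrays limits the precision, and the steps were tested on simulated data. The members and gene lists were chosen with earlier results of these data known. Genes named beside the members were the 8 most like Ikzf2 and the 3 most like each other member by Pearson r, up to 4 called genes per list and comparison by size, and defining markers of cell types. Chd4, Pirb and the wildtype Notch1 and knockout Hdac1 values were added for their roles, after their values were seen.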

Additional observations from a re-analysis of the deposited data

How the results depend on the processing

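Each difference was refitted under 24 alternatives, of which 17 left out 1 array each. The tissue difference of Ikzf3 kept its direction and its call in all 24, between 2.26 and 3.18 in knockout (limma adjusted p up to 0.00406) and between 2.26 and 2.87 in wildtype (limma adjusted p up to 0.00759). In the wildtype tissue comparison 2 members in place of 1 passed with array weights and with the replicate block, and 1 to 2 with 1 array left out. Ikzf4 joined with array weights (0.70, limma adjusted p = 0.00411) and the block (0.57, limma adjusted p = 0.0451). It passed there in 4 of the 24 alternatives. In the Dox comparison in knockout marrow 1 member in place of 0 passed after quantile normalization (Ikzf4) and 2 with array weights (Ikzf4, and Ikzf2 at 0.89, limma adjusted p = 0.0247). The esophageal genotype difference of Ikzf2 was 1.43 after quantile normalization. The cause of these changes was not tested.

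Of 35 differences of members, 27 moved by over 1.5 times under at least 1 alternative; both tissue differences of Ikzf3 were among the 8 that did not. The wildtype tissue difference of Ikzf2 ran from -0.93 to -0.16, and the knockout tissue difference of Ikzf4 from 0.18 to 0.50. Those of Ikzf5 ran from -0.50 to -0.23 in knockout and from -0.46 to -0.18 in wildtype. Several uncalled or untested differences changed sign. Over the alternatives the untested esophageal genotype difference ran from -0.45 to 0.73 for Ikzf1 and from -0.073 to 0.19 for Ikzf5. With 1 array left out, Ikzf1 in the wildtype tissue comparison ranged from -0.94 to 0.17, and it was 0.24 with array weights. In the marrow genotype comparison with Dox the ranges were -0.30 to 0.033 for Ikzf2, -0.075 to 0.14 for Ikzf3 and -0.062 to 0.25 for Ikzf5. Without Dox they were -0.86 to 0.14 for Ikzf2, with 0.11 after quantile normalization, and -0.57 to 0.40 for Ikzf3. For Dox in knockout marrow Ikzf3 ranged from -0.36 to 0.18 and was 0.026 after quantile normalization, 0.014 after median centring and 0.32 with array weights, and Ikzf5 was -0.021 with array weights. For Dox in wildtype marrow Ikzf3 ranged from -0.71 to 0.25.

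The background moved too: over the alternatives 1538 to 6117 genes passed in the knockout tissue comparison (2336 as reported) and 1335 to 8210 in the wildtype one (3366). For Dox 0 to 3331 passed in knockout marrow and 0 to 119 in wildtype marrow (5 each as reported). For genotype 6 to 858 passed in the esophagus (77), 0 to 6 in marrow with Dox (0) and 0 to 27 without (0). Array weights or quantile normalization gave each highest count. Of 36 calls picked from the gene lists by size, not all of them named above, 17 held in every alternative and none changed direction. Irf8, of the lymphoid list, was lower in wildtype esophageal than marrow eosinophils (-0.74, limma adjusted p = 0.0406) and kept its call in 10 of 24. The reported fit did not pair samples by replicate number. Over 19 same-numbered pairs the r of deviations from the group means was between -0.090 and 0.20, over 0.1 in 5. All pairs were over 0.1 in both comparisons that use wildtype marrow without Dox, at 0.14 and 0.18 for Dox and 0.18 and 0.20 for genotype. The block changed no call of a member other than that of Ikzf4. Centred values hide how far a probe set lies above background, and groups of 2 or 3 arrays limit all comparisons.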
